A study of Rattus norvegicus with 16 samples.

Results

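The libraries numbered 1-4 were set against those numbered 5-8, in both treatments, across the transcriptome of CA1 of the dorsal hippocampus of young rats. All 16 libraries of the series entered, 8 in each set, and each set held 4 kainate and 4 control libraries. The kainate rats were male Sprague-Dawley pups given 2 mg/kg of kainate subcutaneously on postnatal day 7, and the control rats were male pups of the same strain given saline that day. All were killed on postnatal day 14, and dorsal slices rested in artificial cerebrospinal fluid before CA1 was cut out; CA3 had been removed first, while cortex and dentate gyrus stayed on during the rest. Every kainate animal was reported to have seized, and the labels name no allele or genetic change in either treatment. No batch label exists: the labels name no date, litter, lane or extraction group. The only label that orders the animals is the number that opens each sample title, which ran from 22 to 607 in replicates 1-4 and from 771 to 889 in replicates 5-8. What else differed between the sets cannot be told apart from this order. Only these separate numbers show that each library came from a different rat.

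The main axis of variance in a tissue transcriptome gathers whatever differs most between samples. This can be cell makeup, the state of the cells, the dissection, the quality of the RNA or the way libraries were made and sequenced. In hippocampal tissue, long genes include many that build synapses, ion channels and axons, while many genes of ribosomes, proteasomes and the respiratory chain are short and highly expressed. CA1 pyramidal neurons are the output neurons of the hippocampus proper, surrounded by interneurons, glia and vessels.

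The cut between replicates 4 and 5 was chosen from the first principal component of these same values. All differences between the sets are therefore descriptions, and nothing is read from how many features passed a threshold. The first component held 45.3% of the variance of 21698 isoforms and the second 20.02%. Scores on the first were 4.31 to 23.22 in replicates 1-4 and -17.40 to -5.88 in replicates 5-8. On either side of the cut, replicates 4 had scores of 7.58 (kainate) and 4.31 (control), and replicates 5 had -8.55 (kainate) and -14.88 (control). The library of replicates 5-8 nearest to the cut was kainate replicate 8, at -5.88.

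A group of 3 libraries stood apart within replicates 1-4. Kainate replicates 1 and 2 and control replicate 2 scored 21.02, 21.03 and 23.22 on the first component, against 4.31 to 8.86 for the other 5 libraries of the set. On the second component the same libraries had 8.85, 10.03 and 17.14, against -14.90 to -6.42. Within replicates 1-4 alone, the first axis held 55.2% of the variance and again put these libraries on one side. The loadings of that axis correlated at 0.30 in absolute value with the difference between the sets across isoforms, against 0.59 for the first axis within replicates 5-8 (29.0% of its variance). These 2 values are across isoforms of shared libraries and are given with no test. Over gene totals, the logarithm of a symbol's summed isoforms, the same libraries scored 10.63 to 11.44 on the first component, against 5.98 to 10.12 for the other 5. Without these 3 libraries the first component of the remaining 13 held 51.4% and placed replicates 1-4 at 11.24 to 17.31 and replicates 5-8 at -14.97 to -0.31.

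**Figure D1:**
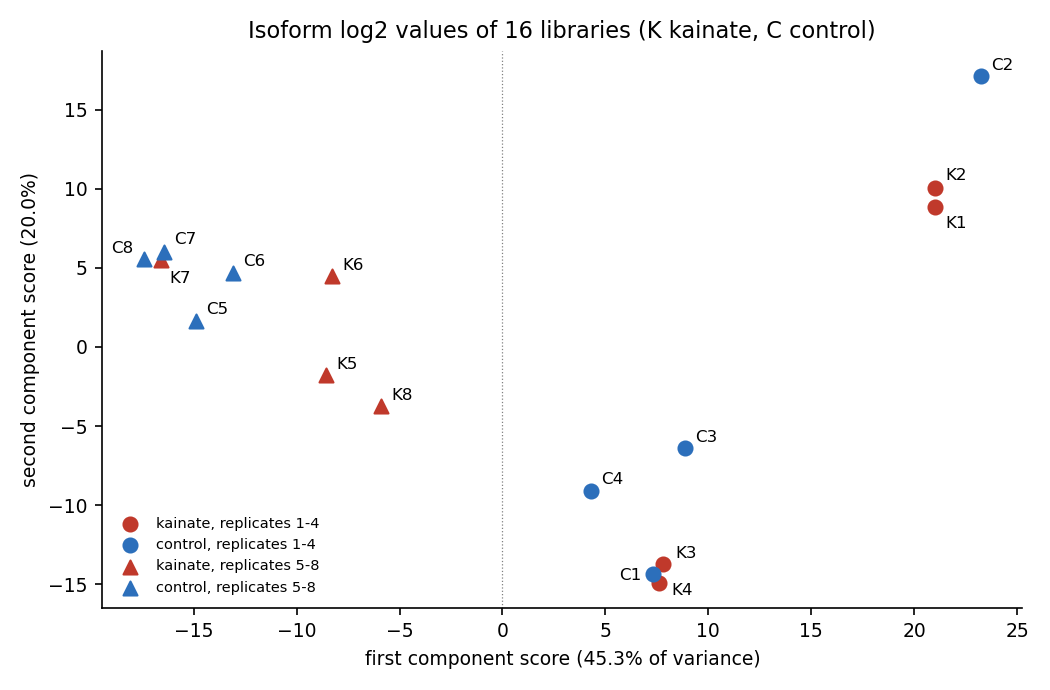
Scores of the 16 libraries on the first (horizontal) and second (vertical) principal component of all isoforms; circles are replicates 1-4 and triangles replicates 5-8, red kainate (K) and blue control (C). Replicates 1-4 lie at 4.31 to 23.22 and replicates 5-8 at -17.40 to -5.88, and K1, K2 and C2 sit apart in the upper right corner.

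The size of the difference was small for most genes. The median absolute difference of a gene was 0.069 on the log2 scale, and 13 genes differed by more than 1. Across 16602 genes, 3196 (19.3%) were called higher and 3863 (23.3%) lower in replicates 1-4, where called means an adjusted p under 0.05 in limma with treatment as a term. Across isoforms, 4282 (19.7%) were called higher and 4144 (19.1%) lower. The 8 and 8 libraries did not overlap for 811 genes (4.88%) that were higher and 962 (5.79%) that were lower, nor for 1091 isoforms (5.03%) higher and 1042 (4.8%) lower. Of the first component's squared loading, 50% lay in 592 isoforms (2.73%) and 25% in 68 of them. For the median isoform the sets accounted for 22.3% of the variance and treatment for 2.32%. The cut was chosen from these values and treatment was not, so these shares cannot be compared as like measures. Without the 3 libraries named above, 3708 genes were called higher and 4314 lower. With median centring 2441 genes were called higher and 5916 lower (isoforms 3279 and 6308), with the median of all genes at -0.031 instead of -0.0064. With quantile normalization 2772 genes were called higher and 4641 lower (isoforms 3661 and 4937).

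The difference followed the length of the gene. In 12160 genes with a mean normalized count of at least 100 and a RefSeq gene span, the distance from first to last annotated base, the difference between the sets had a Spearman rho of 0.51 with the span. Without the 3 libraries it was 0.55, in kainate libraries alone 0.48 and in control libraries alone 0.51. Genes are not independent replicates, so no p is given. Genes were ordered by span into 10 equal bins. In the bin of shortest spans (median 3060 bases) the median difference was -0.12, and 55.8% were called lower and 4.11% higher. In the bin of longest spans (median 255000 bases) it was 0.099, with 51.5% called higher and 8.47% lower. The medians increased at each step from the shortest to the longest bin. The relation with the expression level was weak, at a rho of -0.078.

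Library by library, the relation of a gene's deviation from its mean with the span had a rho of 0.29 to 0.44 in 5 libraries of replicates 1-4. It was weaker in the 3 that stood apart, at 0.20, 0.16 and 0.06. In replicates 5-8 it was -0.46 to -0.37 in 6 libraries, while kainate replicate 5 had -0.06 and kainate replicate 8 had 0.17. The sets thus overlapped on this measure through kainate replicate 8. After a smooth trend with span was removed from each library, 3593 of 14526 genes were called higher and 3163 lower. The first component of the isoforms whose genes have a span then held 45.4%. It kept replicates 1-4 (2.60 to 23.70) apart from replicates 5-8 (-14.77 to -6.48). Whether RNA quality or library making played a part in the relation with span was not tested.

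**Figure D2:**
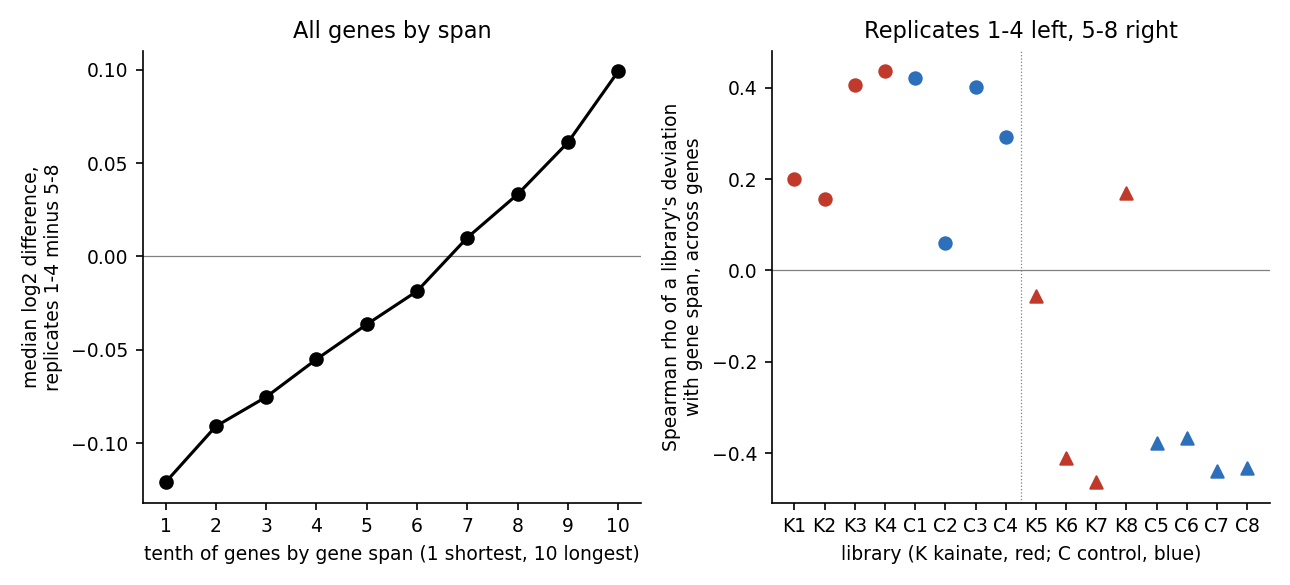
Left, the median log2 difference between replicates 1-4 and 5-8 (vertical) in 10 bins of genes ordered by span (horizontal), 1216 genes each; right, for each library the Spearman rho between gene span and the deviation of genes from their mean, kainate red (K) and control blue (C), circles replicates 1-4 and triangles replicates 5-8. The median runs from -0.12 to 0.099, and kainate replicate 8 sits at 0.17 among the circles.

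Among the gene lists, those of chromatin and of voltage-gated channels had the highest medians. Of 36 measured chromatin modifier genes, 29 were called higher and 3 lower, with a median of 0.20, against 19.3% and 23.3% of all genes and a median of -0.0064. Kmt2a, a histone H3 lysine 4 methyltransferase, ran from 11.79 through a median of 11.89 to 12.04 in replicates 1-4, and from 11.05 through 11.20 to 11.66 in replicates 5-8. The sets did not overlap, and the difference was 0.63 ± 0.068 (SE, n = 8 libraries per set). Bptf, the largest subunit of a nucleosome remodeller, differed by 0.42 ± 0.040. Tet2, an enzyme that oxidizes methylated cytosine, differed by 0.39 ± 0.041. With the length trend removed the list median was 0.15, and the median span of its genes was 91200 bases.

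Of 43 voltage-gated channel genes, 28 were called higher and 4 lower, against 19.3% and 23.3% of all genes. The list median was 0.18, or 0.10 with the length trend removed. Cacna1e encodes the pore of the R-type calcium channel. It ran from 13.29 through 13.55 to 13.66 in replicates 1-4 and from 12.53 through 12.74 to 13.23 in replicates 5-8. The sets came close but did not overlap: the highest library of replicates 5-8 was kainate replicate 8, and the lowest of replicates 1-4 was control replicate 4. Its difference was 0.73 ± 0.072. Scn8a, a sodium channel of the axon initial segment, differed by 0.52 ± 0.053, and Cacna1d, an L-type calcium channel, by 0.41 ± 0.042. Axon growth and cytoskeleton genes had 13 of 25 called higher and 3 lower, with a median of 0.11. The ankyrin genes Ank2 and Ank3, which anchor membrane proteins to the cytoskeleton, differed by 0.39 ± 0.039 and 0.42 ± 0.043.

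On the higher side, the single genes with the largest differences and no overlap between the sets were long genes, short loci and entries without a span. Zbtb20, a zinc finger repressor that specifies CA1 identity, ran from 10.87 through 11.38 to 11.52 in replicates 1-4 and from 9.97 through 10.16 to 10.61 in replicates 5-8. Its difference was 1.09 ± 0.089, and its span is 739030 bases. In replicates 5-8 the 3 kainate libraries 5, 6 and 8 had 10.54, 10.51 and 10.61, above the 9.97 to 10.19 of the other 5. Dgkh, a diacylglycerol kinase, differed by 0.79 ± 0.071. Hipk2, a nuclear protein kinase, differed by 0.72 ± 0.068, Fat3, an atypical cadherin that shapes dendrites, by 0.71 ± 0.072, and Plxna4, a semaphorin receptor in axon guidance, by 0.69 ± 0.064. The unnamed locus LOC100365839, with a span of 927 bases, differed most among genes without overlap, by 3.10 ± 0.22. It was at 9.56 through 9.85 to 11.11 in replicates 1-4 against 6.89 through 7.06 to 7.22 in replicates 5-8. LOC100910017, with a span of 1232 bases, differed by 0.93 ± 0.12. The entries LOC103689971, AABR07033324.1 and RGD1560797, which have no RefSeq span, differed by 0.85 ± 0.13, 0.83 ± 0.068 and 0.76 ± 0.080.

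Glutamate receptor genes did not move as a block. Of 22 ionotropic receptor genes with their auxiliary subunits, 7 were called higher and 1 lower, against 19.3% and 23.3% of all genes. The list median was 0.071, or 0.016 with the length trend removed. Grin2a, a regulatory subunit of the NMDA receptor, ran from 13.02 through 13.36 to 13.46 in replicates 1-4 and from 12.32 through 12.56 to 12.92 in replicates 5-8. The sets did not overlap, and the difference was 0.76 ± 0.073. Grin2b, the NMDA subunit that prevails early in development, differed by 0.82 ± 0.078, with control replicate 4 and kainate replicate 8 both at 12.22. Grin1, the obligatory NMDA subunit with a span of 26919 bases, differed by -0.0016 ± 0.037. The AMPA subunit genes Gria1 and Gria2 differed by 0.16 ± 0.035 and 0.19 ± 0.051. Cnih2, an auxiliary subunit that slows AMPA receptor gating, went the other way. It ran from 14.75 through 14.90 to 14.96 in replicates 1-4 and from 15.17 through 15.38 to 15.46 in replicates 5-8, a difference of -0.45 ± 0.043 with no overlap, and its span is 5684 bases.

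Synaptic lists were similarly divided. Presynaptic vesicle genes had 15 of 34 called higher and 7 lower, against 19.3% and 23.3% of all genes, with a median of 0.074. Pclo, a giant scaffold of the active zone, differed by 0.58 ± 0.070, while Slc17a7, the vesicular glutamate transporter of excitatory neurons, differed by -0.23 ± 0.025. Slc17a7 ran from 15.93 through 15.97 to 16.02 in replicates 1-4 and from 16.15 through 16.19 to 16.27 in replicates 5-8, without overlap. Of 31 postsynaptic density genes, 12 were called higher and 4 lower, with a median of 0.0080 that became -0.016 under median centring. Dlgap2 and Dlgap3 are scaffold genes of one family and differed by 0.29 ± 0.042 and -0.40 ± 0.037, with spans of 709640 and 70684 bases. GABA signalling genes had 8 of 25 called higher and 2 lower, with a median of 0.059, or 0.010 with the length trend removed. Gabrb1, a receptor subunit gene, differed by 0.49 ± 0.049. Splicing factor genes had 16 of 49 called higher and 6 lower with a median of 0.025, which was 0.00043 under median centring. Rbfox2 and Celf1, regulators of alternative exons, differed by 0.35 ± 0.038 and 0.36 ± 0.041.

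**Figure D3:**
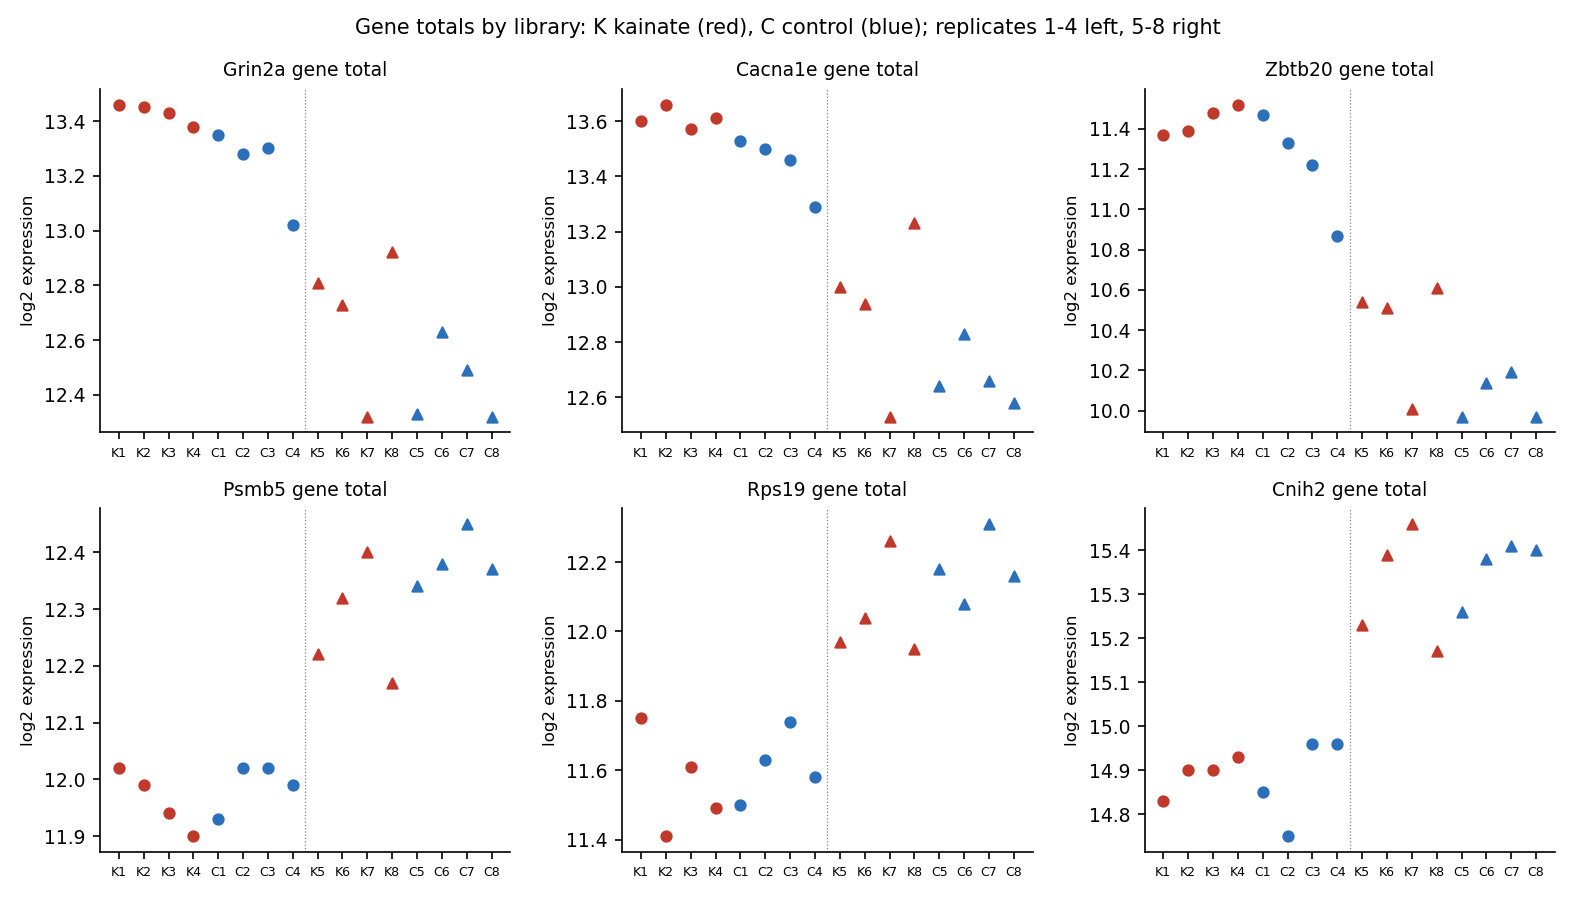
Gene totals on the deposited log2 scale (vertical) in each library (horizontal), kainate red (K) and control blue (C), replicates 1-4 as circles on the left and 5-8 as triangles on the right. Grin2a, Cacna1e and Zbtb20 are higher and Psmb5, Rps19 and Cnih2 lower in all 8 libraries of replicates 1-4, and kainate replicate 8 lies nearest to the other set for Grin2a (12.92).

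Among the gene lists, the lowest medians were those of protein turnover, protein synthesis and energy genes. All 32 measured proteasome genes had lower means in replicates 1-4. Of these, 28 were called lower and 0 higher, against 23.3% and 19.3% of all genes, with a median of -0.14. With the length trend removed, 15 were called lower and the median was -0.11. It was -0.11 in kainate libraries alone, -0.18 in control libraries alone and -0.16 without the 3 libraries. Psmb5, which encodes a catalytic subunit of the 20S core, ran from 11.91 through 11.99 to 12.02 in replicates 1-4 and from 12.17 through 12.36 to 12.45 in replicates 5-8. The sets did not overlap, and the difference was -0.35 ± 0.034. Psmd8, of the regulatory lid, differed by -0.31 ± 0.038, Psmc1, an ATPase of the regulatory base, by -0.27 ± 0.036, and the catalytic subunit Psmb6 by -0.24 ± 0.043.

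Since the proteasome genes moved together, their promoters were searched for TGACNNNGC, the core of the antioxidant response element through which the factor NFE2L1 is known to drive proteasome genes. Windows of 300 bases, from 250 before to 50 after the start, came from RefSeq on GRCr8 and were read on both strands. Of 32 proteasome genes 28 had a window, and 6 of these (21.4%) held a match, against 1634 of 11253 measured genes with a window (14.5%) and 12.2% of all windows in the table. The same search matched 18.6% of windows of cytosolic ribosomal protein genes (11 of 59) and 15.4% of chromatin modifier genes. It matched 12% of respiratory chain genes and 3.85% of voltage-gated channel genes. Whether this motif has a part in the difference between the sets was not tested. The windows of the catalytic subunits Psmb5 (chr15:32047330-32047629, minus strand) and Psmb6 (chr10:55737638-55737937, plus strand) are shown as 2 of the proteasome windows with a match, which is in capitals. A match is a description of the letters and not a shown binding site, and no other motif was searched.
Psmb5: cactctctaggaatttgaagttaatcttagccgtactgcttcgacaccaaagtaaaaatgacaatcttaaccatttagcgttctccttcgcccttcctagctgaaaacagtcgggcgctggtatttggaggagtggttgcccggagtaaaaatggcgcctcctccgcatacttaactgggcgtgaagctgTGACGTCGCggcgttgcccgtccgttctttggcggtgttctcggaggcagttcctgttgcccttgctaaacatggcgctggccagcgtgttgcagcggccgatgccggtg
Psmb6: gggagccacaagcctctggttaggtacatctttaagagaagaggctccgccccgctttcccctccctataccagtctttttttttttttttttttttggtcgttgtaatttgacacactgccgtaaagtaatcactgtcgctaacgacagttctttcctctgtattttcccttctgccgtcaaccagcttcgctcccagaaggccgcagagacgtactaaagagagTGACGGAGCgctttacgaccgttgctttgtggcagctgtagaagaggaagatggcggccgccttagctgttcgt

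Respiratory chain genes of the nucleus had 45 of 74 called lower and 1 higher, against 23.3% and 19.3% of all genes. Their median was -0.15, or -0.084 with the length trend removed. Ndufv1, a subunit of complex I, ran from 12.54 through 12.67 to 12.72 in replicates 1-4 and from 12.81 through 12.95 to 13.002 in replicates 5-8, a difference of -0.28 ± 0.032 with no overlap. The ATP synthase genes Atp5g1 and Atp5b differed by -0.41 ± 0.043 and -0.21 ± 0.028. Mitochondrial ribosomal protein genes had 50 of 76 called lower and 0 higher, with a median of -0.13, or -0.065 with the length trend removed. Mrpl54 differed by -0.35 ± 0.042 among them.

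Cytosolic ribosomal protein genes had 36 of 75 called lower and 0 higher, against 23.3% and 19.3% of all genes. Their median of -0.13 was -0.044 with the length trend removed and -0.19 without the 3 libraries. Rps19, of the small subunit, ran from 11.41 through 11.59 to 11.75 in replicates 1-4 and from 11.95 through 12.12 to 12.31 in replicates 5-8. The sets did not overlap and the difference was -0.53 ± 0.055. Ribosomal protein genes have many near-identical processed copies, so their values are uncertain where reads could be shared. The median span of the list was 3140 bases.

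Genes encoded in mitochondrial DNA had 8 of 12 called lower and 0 higher, against 23.3% and 19.3% of all genes, with a median of -0.18. The median was -0.205 with median centring, -0.105 without the 3 libraries, -0.213 in kainate libraries and -0.176 in control libraries. After quantile normalization it was 0.0036. That scaling gives every library the same distribution of values, which leaves little room for differences among the most highly expressed genes. It therefore cannot decide the direction of these genes. Mt-nd1 and Mt-nd2, subunits of complex I, differed by -0.31 ± 0.055 and -0.35 ± 0.075 as deposited. Other single genes with large lower values were Zbed5, a zinc finger gene derived from a transposase (-0.64 ± 0.052), and Enho, which encodes the secreted peptide adropin (-0.45 ± 0.039). A group of 5 protein-coding entries with clone names had identical values in every library, with a difference of -1.20 ± 0.16, so they share reads and count as 1 uncertain measurement.

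Immediate early genes, the first to be transcribed when neurons fire, had 31 of 37 members with lower means in replicates 1-4, and 7 were called lower and 4 higher, against 23.3% and 19.3% of all genes. The list median was -0.081, with -0.042 in kainate libraries and -0.105 in control libraries, and -0.034 with the length trend removed. Egr4, an activity-induced transcription factor, ran from 9.30 through 9.47 to 9.78 in replicates 1-4 and from 9.79 through 9.88 to 10.07 in replicates 5-8, a difference of -0.38 ± 0.072. The ranges nearly touched without overlapping. Fos and Egr1, the classical transcription factors of this class, differed by -0.20 ± 0.20 and -0.052 ± 0.11 with overlapping ranges. Npas4, an early gene specific to neurons, differed by -0.11 ± 0.082, and Arc, which regulates AMPA receptor endocytosis, by -0.19 ± 0.068. Inhba, an activin subunit induced by activity, was 0.15 ± 0.030 higher.

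Heat shock chaperone genes had 5 of 21 called lower and 0 higher, against 23.3% and 19.3% of all genes, with a median of -0.075. Hsp90aa1, the inducible cytosolic form of HSP90, ran from 14.94 through 15.19 to 15.49 in replicates 1-4 and from 15.47 through 15.60 to 15.71 in replicates 5-8, so that the sets overlapped slightly. The list median was -0.040 without the 3 libraries, -0.034 with quantile normalization and -0.011 with the length trend removed. Genes of the unfolded protein and amino acid stress responses had 10 of 22 called lower and 0 higher, with a median of -0.078. Hypoxia response genes had 8 of 19 called lower and 3 higher, with a median of -0.062.

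Cell type marker lists had medians between -0.092 (microglia) and 0.068 (dentate granule cells), and several lists held markers called in both directions. In bulk tissue, fewer cells of a type and less RNA per cell cannot be told apart. The CA1 markers Fibcd1 (14.38 to 14.62 in replicates 1-4, 14.57 to 14.84 in replicates 5-8) and Wfs1 (15.02 to 15.48 and 14.98 to 15.22) were expressed in every library. Of 10 CA1 pyramidal markers, 2 were called higher and 3 lower, against 19.3% and 23.3% of all genes, with a median of -0.065. Mpped1, a CA1 marker, was lower by -0.22 ± 0.030, whereas Gpr161, a receptor of the same list, was higher by 0.26 ± 0.045. The summed level of the list was 16.58 to 16.79 in replicates 1-4 and 16.71 to 16.80 in replicates 5-8.

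Dentate granule cell markers had 6 of 14 called higher and 0 lower, against 19.3% and 23.3% of all genes. Their median was 0.068, and it was 0.12 in kainate libraries and 0.038 in control libraries. Prox1, the transcription factor that defines these cells, ran from 11.21 through 11.44 to 11.79 in replicates 1-4 and from 10.97 through 11.04 to 11.46 in replicates 5-8, with overlap. The summed level of the dentate list was 14.20 to 14.50 in replicates 1-4 and 14.07 to 14.36 in replicates 5-8. CA3 markers had 2 of 11 called each way, and cortical layer markers 2 of 15 each way. Dentate gyrus and cortex had stayed on the slices until the last dissection, and their part in the result was not tested.

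Interneuron markers had 4 of 20 called higher and 5 lower, close to the 19.3% and 23.3% of all genes, with a median of 0.025. Sst, the neuropeptide somatostatin with a span of 1278 bases, was lower by -0.50 ± 0.071. Reln and Erbb4, an extracellular matrix protein and a neuregulin receptor, have spans of 426760 and 1072200 bases and were higher by 0.56 ± 0.067 and 0.54 ± 0.052. Oligodendrocyte precursor markers had 6 of 13 called higher and 2 lower, but 7 of 13 had lower means and the list median was -0.050. The median was -0.116 in kainate libraries, 0.017 in control libraries and 0.034 with the length trend removed, so the list had no steady direction. The lineage factor Olig1 (span 2143 bases) was at -0.34 ± 0.036 and the transcription factor Sox6 (span 611570 bases) at 0.26 ± 0.040. Gpr17, a receptor of differentiating precursors, is also short (span 6922 bases) and was higher by 0.27 ± 0.060. Among immature neuron genes, 4 of 16 were called higher and 7 lower. Marcksl1 and Stmn1, short genes of the growing cytoskeleton, differed by -0.35 ± 0.037 and -0.36 ± 0.066, while Dpysl3, with a span of 105800 bases, differed by 0.19 ± 0.033.

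Microglia markers had the lowest median of the cell type lists, at -0.092. Of 18 members, 2 were called higher and 7 lower, against 19.3% and 23.3% of all genes. Their summed levels were 14.46 to 14.61 in replicates 1-4 and 14.55 to 14.76 in replicates 5-8. C1qc, a complement subunit, ran from 9.71 through 9.92 to 9.97 in replicates 1-4 and from 10.02 through 10.14 to 10.33 in replicates 5-8, a difference of -0.26 ± 0.044 with no overlap. Tmem119, a marker particular to microglia in brain, differed by -0.24 ± 0.041. Astrocyte markers had 2 of 17 called each way. The bicarbonate transporter gene Slc4a4 differed by 0.45 ± 0.047 and the gap junction gene Gja1 by 0.18 ± 0.032, while Gpr37l1, an orphan receptor of the same list, differed by -0.14 ± 0.038. Myelin genes had 5 of 25 called higher and 2 lower, with a median of 0.061 that was 0.11 without the 3 libraries. Vessel wall markers had 3 of 23 called each way, choroid plexus and ependymal markers 3 of 15 lower and 0 higher, meningeal fibroblast markers 4 of 13 lower and 0 higher, and red blood cell genes 1 of 5 lower.

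**Figure D4:**
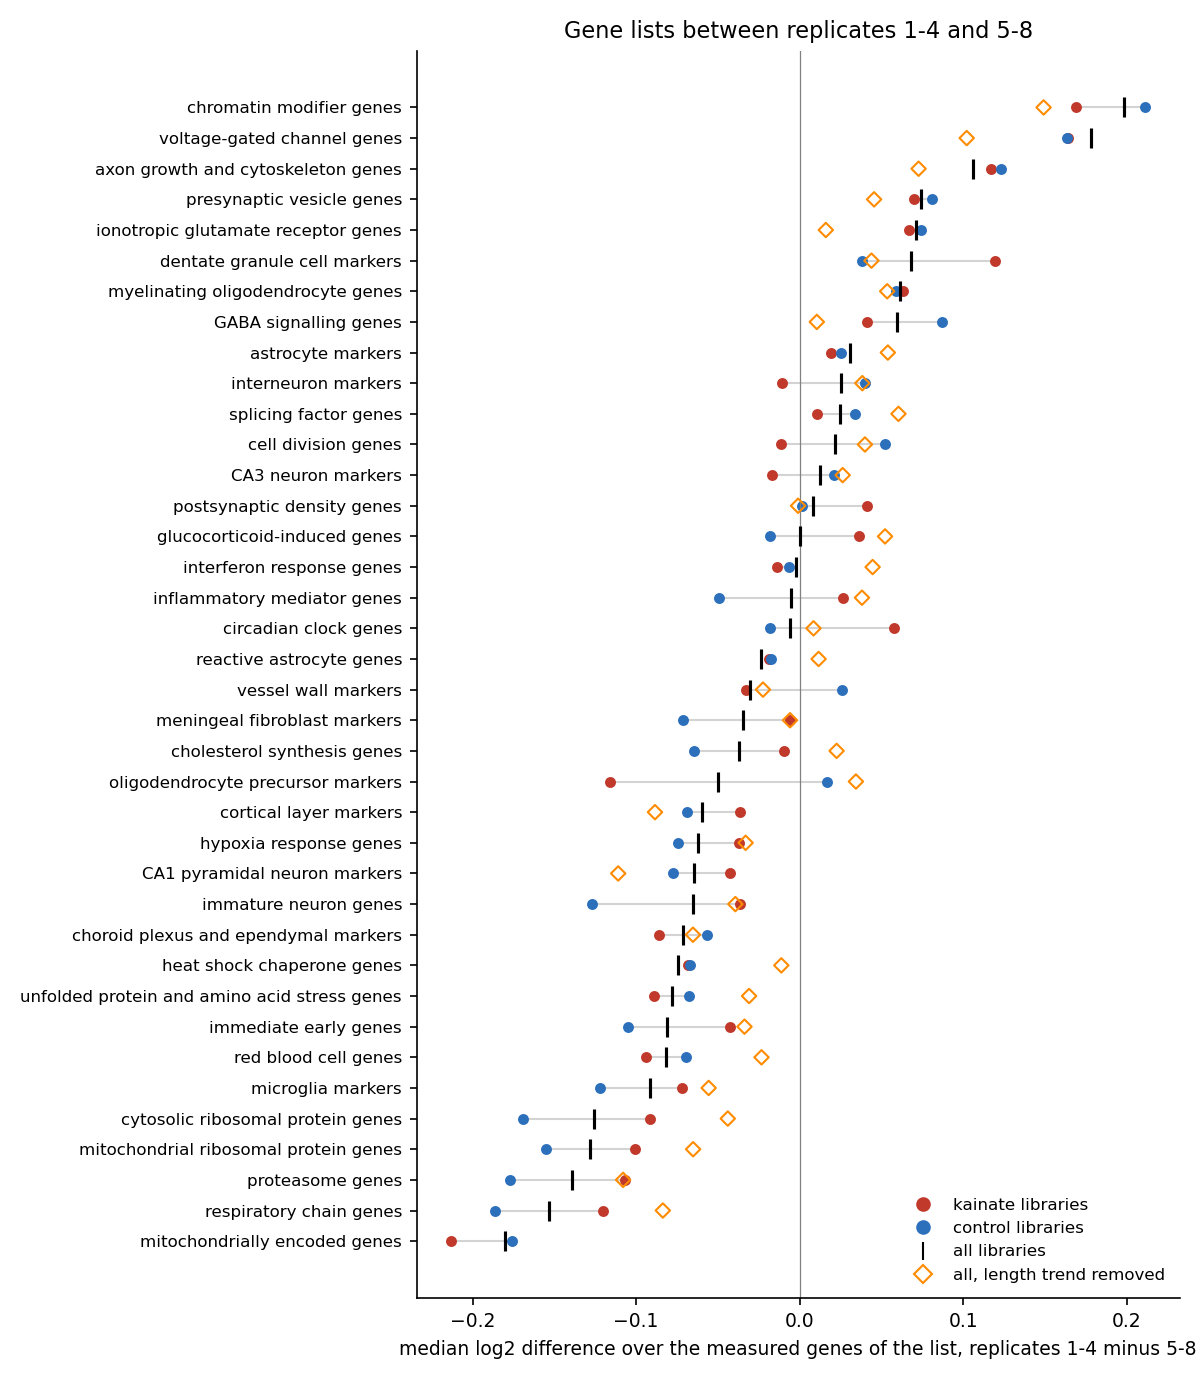
Median log2 difference between replicates 1-4 and 5-8 (horizontal) of each of 38 gene lists (vertical), from all libraries (black bar), kainate libraries (red), control libraries (blue) and with the gene length trend removed (open diamond). Chromatin (0.20) and channel genes (0.18) lie at one end, and proteasome (-0.14), respiratory chain (-0.15) and mitochondrially encoded genes (-0.18) at the other.

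Several transcript classes outside coding mRNA had more isoforms called higher than lower. Of 562 lincRNA isoforms, 37.0% were called higher and 3.56% lower in replicates 1-4, against 19.7% and 19.1% of all isoforms. The sets did not overlap in 76 lincRNA isoforms that were higher in replicates 1-4 and in 0 that were lower, against 5.03% and 4.8% of all isoforms. Of 270 isoforms annotated as retained introns, 30.7% were called higher and 4.07% lower, and of 272 processed transcripts 30.9% and 5.88%. Pseudogenes had 29.5% higher and 6.27% lower. Protein-coding isoforms had 18.7% higher and 20.3% lower. Small nuclear RNAs went the other way in their means, with 24 of 24 lower and a median of -0.0135, and 0 were called. These classes are weakly expressed, with a median of 27.4 mean normalized counts for lincRNAs against 603 for coding isoforms, and the deposited scale compresses weak isoforms.

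Single isoforms separated the sets with the widest gaps. The Nedd4 isoform ENSRNOT00000090258, of a ubiquitin ligase that acts on membrane proteins, ran from 8.98 through 9.74 to 10.33 in replicates 1-4 and from 6.74 through 6.78 to 6.81 in replicates 5-8. The gap between the sets, 2.16, was larger than the range within either. The other Nedd4 isoform, ENSRNOT00000088391, which holds nearly all of the gene's signal, was at 14.99 to 15.15 in replicates 1-4 and 14.94 to 15.06 in replicates 5-8. The Ranbp2 isoform ENSRNOT00000001044, of a nuclear pore protein, ran from 9.08 through 9.98 to 10.43 in replicates 1-4 and from 6.79 through 6.83 to 6.85 in replicates 5-8. Its gene total differed by -0.059 ± 0.10. A Clip2 isoform (ENSRNOT00000091328, of a microtubule-binding protein) was at 10.26 to 10.72 in replicates 1-4 and 7.40 to 9.21 in replicates 5-8. The range of 6.74 to 6.85 in which the low sets of Nedd4 and Ranbp2 lie is nearly constant between libraries, so these differences may understate the change in reads.

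In the other direction, the Ewsr1 isoform ENSRNOT00000086607, of an RNA-binding protein, ran from 7.31 through 7.46 to 9.0035 in replicates 1-4 and from 9.51 through 9.85 to 10.01 in replicates 5-8. A total of 6 libraries of replicates 1-4 lay between 7.31 and 7.52, and kainate replicates 3 and 4 had 8.51 and 9.0035. The share of this isoform in the Ewsr1 total was 7.59% to 24.2% in replicates 1-4 and 28.8% to 35% in replicates 5-8. The Mbp isoform ENSRNOT00000022303, of myelin basic protein, ran from 9.76 through 10.69 to 11.12 in replicates 1-4 and from 11.36 through 11.57 to 11.79 in replicates 5-8. Its lowest values, 10.03, 9.82 and 9.76, were those of kainate replicates 1 and 2 and control replicate 2. The Mbp total differed by 0.053 ± 0.068, with overlap.

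Other isoforms with large loadings belonged to the 3 libraries that stood apart. The Slc17a7 isoform ENSRNOT00000064184 had the largest loading. It was at 13.30, 12.47 and 13.58 in kainate replicates 1 and 2 and control replicate 2, at 6.60 to 7.65 in the other 5 libraries of replicates 1-4, and at 6.25 to 6.55 in replicates 5-8. Its share of the Slc17a7 total was 15.1%, 9.10% and 19.4% in those 3 libraries and at most 0.319% in the other 13. The Nsf isoform ENSRNOT00000087824, of the ATPase that recycles fusion complexes, was at 9.89, 9.98 and 9.74 in the same 3 libraries. It was also high in kainate replicate 3 (9.30) and control replicate 3 (9.59), and lay between 5.99 and 6.94 in the other 11. The only measured Actg1 isoform, ENSRNOT00000054976 of cytoplasmic actin, was highest in the same 3 libraries (13.60, 13.67 and 14.02). It ran from 7.71 through 12.02 to 14.02 in replicates 1-4 and from 7.61 through 7.81 to 11.16 in replicates 5-8, with overlap.

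**Figure D5:**
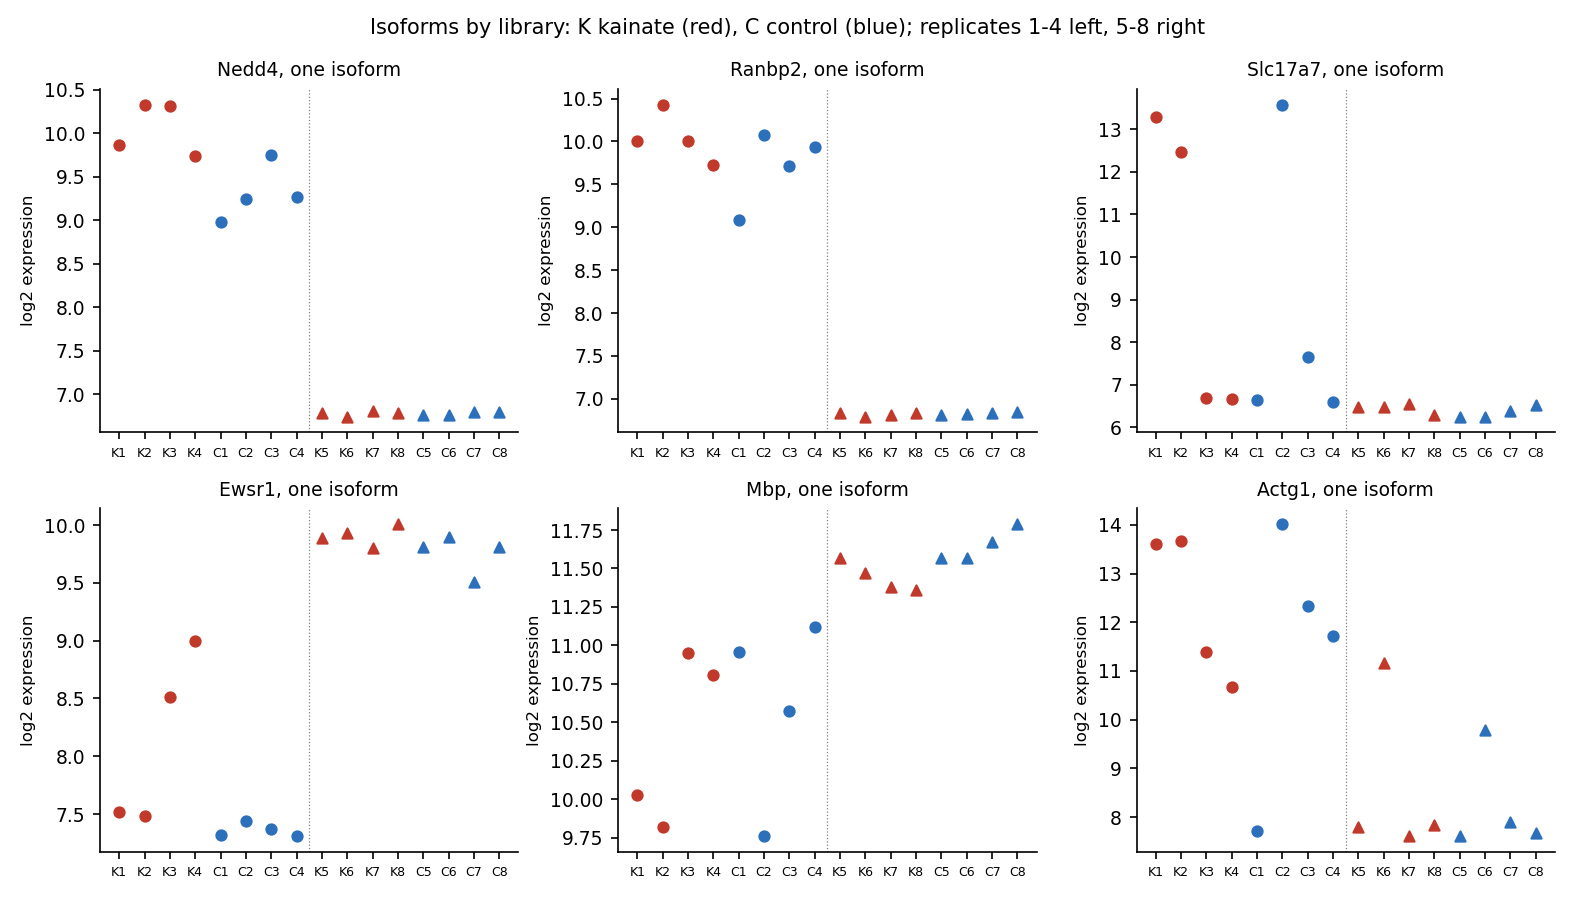
Deposited log2 values (vertical) of 6 isoforms in each library (horizontal), kainate red (K) and control blue (C), replicates 1-4 as circles on the left and 5-8 as triangles on the right. The Nedd4 and Ranbp2 isoforms are near 6.8 in all of replicates 5-8, the Slc17a7 isoform is above 12 only in K1, K2 and C2, and the Ewsr1 and Mbp isoforms are lower in replicates 1-4.

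The mix of isoforms within genes was compared next. Of 3774 genes with several isoforms, 1535 (40.7%) were called for usage by limma's diffSplice. Of the 1535, 603 had a gene total that was not called and 725 had a total within 0.1 of 0. Over all 16602 genes, 42.5% of totals were called and the median absolute difference was 0.069. Steady totals were thus not shown to be more common among genes called for usage. A stricter rule asked for a total within 0.1, and for 2 isoforms with mean counts of at least 100 that went opposite ways without overlap. Of 1272 genes with a steady total and 2 such isoforms, 8 met it: Shank3, Cog7, Srp68, Zswim8, Tas1r2, Ndel1, Papss1 and Sidt2. Shares were taken from the deposited values after undoing the logarithm.

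Cog7 encodes a subunit of a Golgi tethering complex. Its isoform ENSRNOT00000077869 made up 71.8% to 81.9% of the gene in replicates 1-4 (median 74.6%) and 61.1% to 64.1% in replicates 5-8 (median 62.0%), with ENSRNOT00000080534 as the rest. The gene total differed by 0.029 ± 0.025. Shank3, a master scaffold of the excitatory postsynapse, had its coding isoform ENSRNOT00000092431 at 10.8% to 13.7% in replicates 1-4 and 15.1% to 17.0% in replicates 5-8. Its noncoding isoform ENSRNOT00000092299 was at 0.225% to 1.24% in replicates 1-4 and 0.203% to 0.233% in replicates 5-8. These overlap as shares though the log2 values did not. On the log2 scale it was nearly constant at 5.80 to 5.82 in replicates 5-8, and control replicate 1 had 5.83. Its highest values, 7.71, 8.17 and 8.15, were those of kainate replicates 1 and 2 and control replicate 2. Shank3 thus met the rule by a narrow gap at a low value. Zswim8, a ubiquitin ligase adaptor in microRNA decay, had ENSRNOT00000063831 at 26.7% to 38.2% in replicates 1-4 and 16.02% to 24.02% in replicates 5-8. Srp68, of the signal recognition particle, had ENSRNOT00000012436 at 20.9% to 29.2% and 13.7% to 18.7%. Ndel1, a dynein regulator, had ENSRNOT00000065505 at 40.0% to 50.3% in replicates 1-4 and 34.2% to 38.8% in replicates 5-8. Papss1, an enzyme of sulfate activation, had ENSRNOT00000081248 at 6.14% to 18.4% in replicates 1-4 and 21.4% to 25.2% in replicates 5-8.

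Comparisons that the cut did not use were tested. Kainate against control within replicates 1-4 called 0 of 21698 isoforms in limma (0%, smallest adjusted p = 0.543). At an unadjusted p under 0.05 there were 718 (3.31%), with 364 up after kainate and 354 down. Within replicates 5-8 kainate against control called 0 (0%, smallest adjusted p = 1). At an unadjusted p under 0.05 there were 621 (2.86%), with 417 up and 204 down. The difference between these kainate differences called 0 isoforms in limma (0%), with 412 (1.9%) under 0.05. By totals of 16602 genes each of the 3 also called 0, with 463, 558 and 288 under 0.05. Without the 3 libraries that stood apart, which leaves kainate replicates 3 and 4 against control replicates 1, 3 and 4, isoforms of Zbtb33, Pfkfb4, Ewsr1 and Mcfd2 were called in limma within replicates 1-4. The Ewsr1 isoform was higher after kainate there by 1.42 ± 0.13 (limma adjusted p = 0.00286), and the other differences were 0.31 for Zbtb33, 0.33 for Pfkfb4 and 0.13 for Mcfd2. The libraries left out went against some of these calls. For the Ewsr1 isoform kainate replicates 1 and 2 had 7.52 and 7.48, against 7.31 to 7.44 in the 4 controls. For the Mcfd2 isoform all 4 kainate libraries (4.53 to 4.94) were below the 5.30 of control replicate 2. For the Pfkfb4 isoform the kainate libraries had 5.11 to 5.46, a range that held the 5.27 of control replicate 2. For the Zbtb33 isoform all 4 kainate libraries (5.02 to 5.81) were above all 4 controls (4.72 to 4.90). In the same fit an isoform of Galk2 was called within replicates 5-8, higher after kainate by 0.27 ± 0.027 (limma adjusted p = 0.00491), at 4.80 to 4.94 in kainate libraries against 4.56 to 4.63 in controls. Control replicate 2 of the other set had 5.32. The isoforms of Zbtb33, Pfkfb4, Mcfd2 and Galk2 had nearly constant low values in many libraries, near 4.72, 4.81, 4.40 and 4.57. Their calls thus rest on small differences near the floor of the scale.

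The score on the first component was set against the number that opens the sample title within each set. In replicates 1-4 Pearson's r was -0.52 (permutation test, n = 8, p = 0.161) and Spearman's rho -0.50 (permutation p = 0.216). Without kainate replicates 1 and 2, farthest from the median number, r was 0.041, so the value rests on those libraries, which are also 2 of the 3 that stood apart. In replicates 5-8 r was -0.34 (permutation test, n = 8, p = 0.394) and rho -0.36 (permutation p = 0.389), and r was -0.35 without kainate and control replicates 5. Adjusted over the 2 relations, the permutation p-values of r were 0.322 and 0.394 and those of rho 0.389 in both sets. Within sets, the order of the numbers was thus not shown to follow the score.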

How the data were processed

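The deposited table gave log2 values of each isoform in each animal, and the sources do not name the transform. The authors' signal column, an isoform's normalized count averaged over all libraries, served as a filter and description. The authors' ratio (fold), score and p-value columns are deposited beside them and were not used. The submitters' processing notes list GATK, SAMtools, Trim Galore, RSEM and DESeq2 as tools of the authors, without versions. An aligner and a genome build were not given in the sources used here. This log2 scale has a floor that differs between isoforms, so differences of weak isoforms are compressed, and read depth per library is unknown.

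A count test was planned, but the values are log2, so limma 3.58.1 (R 4.3.3; trend, robust) was used as deposited, with Benjamini-Hochberg adjustment over all isoforms or genes at 0.05 and no added constant. Gene totals are the log2 of summed 2-power values per symbol, so an isoform at its floor still adds signal; 191 isoforms were identical to another in every library. Usage was fitted with diffSplice. Gene spans came from RefSeq on GRCr8, matched by symbol for 87.5% of genes. The length trend was a lowess fit per library (span 0.3). Figures used matplotlib. The fits were tested on simulated data.

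Named genes were the 12 largest differences each way (coding, count at least 100, no overlap), 3 members per list, the 8 largest loadings each way and the opposite isoform shifts; some of these are not described, and other genes were chosen after their values were seen. Members and the 38 lists were chosen with earlier results of these data known. Replicate numbers come from the sample titles. Deviations from the treatment means correlated in all 8 same-numbered pairs (r 0.127 to 0.781, limit 0.1). Same-numbered libraries share a set, so this r includes the difference between the sets and cannot show pairing. With the set removed r was -0.349 to 0.667, and it was negative for replicates 1 (-0.349) and 8 (-0.112). Pairing by number was thus not shown, and the fits with a replicate block are alternatives only. P-values measure the spread between these animals. Alternatives covered scaling, filters, treatment term, block and left-out libraries.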

Additional observations from a re-analysis of the deposited data

Results flagged for a closer look

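In groups of 4 libraries (one treatment in one set), 408 groups of values were checked for a library whose gap to its nearest neighbour exceeded Dixon's 95% limit as a share of the group's range. The values were gene totals, isoforms, component scores and the relation with span, and some genes, such as Macf1 and Rorb, are not named above. The limit was exceeded in 22, and chance gives about 1 in 20. In replicates 1-4 these were Grin2b in control replicate 4 (12.22, others 12.59 to 12.62), Celf1 (11.79), Atp5b (15.79) and Inhba (7.947) in control replicate 1, Wfs1 (15.25) in control replicate 2, Gpr17 (11.58) in control replicate 3, and Rorb (8.805) in kainate replicate 4. The Slc17a7 isoform ENSRNOT00000064184 stood at 13.58 in control replicate 2, against 6.60 to 7.65 in the other controls.

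In replicates 5-8 they were Zbtb20 (10.01) in kainate replicate 7, Grin1 (14.71) in kainate replicate 8, and Slc4a4 (11.97) in control replicate 7. Gpr17 (11.42) stood out in control replicate 8, and Gria1 (14.30), Macf1 (14.28), Gpr161 (11.67) and Rorb (8.824) in control replicate 6. Fos was low in both libraries of replicate 5, at 13.18 (kainate) and 13.22 (control), and Egr1 in control replicate 5 (13.42). The Actg1 isoform ENSRNOT00000054976 was high in both libraries of replicate 6, at 11.16 (kainate) and 9.794 (control), against 7.61 to 7.89 in the other libraries of the set. The Cog7 isoform ENSRNOT00000080534 stood at 9.054 in kainate replicate 5.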

How the results depend on the processing

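The total counts between the sets stayed within 1.5 times of the main value under the alternatives run on both treatments together, while median centring moved genes called lower to 5916 and isoforms called lower to 6308, over 1.5 times. With 1 treatment and 4 libraries a set, 925 genes were called higher and 715 lower in kainate libraries and 2356 and 2709 in control libraries. With the replicate block as a random effect the totals were 7256 isoforms and 6161 genes, and 1190 genes for usage with same-numbered pairs averaged. With 1 library left out they ran from 7390 to 8531 isoforms, 6246 to 7298 genes and 1368 to 1601 genes for usage. Kainate within either set and the difference of the 2 called 0 of 21698 isoforms with the replicate block, with 913, 836 and 597 at an unadjusted p under 0.05. With 1 library left out these 3 counts were 0 to 1: a Cacna2d1 isoform within replicates 1-4 without control replicate 4, a Galk2 isoform within replicates 5-8 without control replicate 2, and LOC100910472 within replicates 5-8 and for the difference without kainate replicate 5. The Cacna2d1 isoform lay at 2.43 to 2.55 and that of LOC100910472 at 2.01 to 2.12 in all libraries, near the floor. Without the 3 libraries together, chosen after seeing the data, the counts were 4, 1 and 0. With the count filter, quantile normalization and gene totals, r between score and title number kept its sign and no p passed. Among list medians, 13 moved by at least their spread between libraries within a set once the length trend was removed, and 24 did not. With quantile normalization 2 of 38 moved, and with median centring 4. Removing the length trend took proteasome genes called lower from 28 to 15 and cytosolic ribosomal protein genes from 36 to 21. Unfolded protein and amino acid stress genes called lower went from 10 to 5, and chromatin modifier genes called higher from 29 to 26.

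Among steady gene totals, those that reversed were the Papss1 gene difference (-0.0025 in all libraries, 0.0010 with quantile normalization, 0.0063 in control libraries alone, 0.00062, 0.0053, 0.0020 and 0.0031 without kainate replicate 3, kainate replicate 4, control replicate 1 and control replicate 3, and a lowest value of -0.0155 without control replicate 2) and, without the 3 libraries, those of Cog7 (-0.00051) and Zswim8 (-0.0026). Without the 3 libraries, 2 isoforms with large loadings also reversed, ENSRNOT00000080470 of Ank2 (0.53, against -0.67 in all libraries) and ENSRNOT00000084057 of Bcl11b (0.019, against -0.83). The cause was not tested. Depth, which is unknown, limits weak isoforms.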

Other observations

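Circadian clock genes had 6 of 19 called higher and 4 lower in replicates 1-4, against 19.3% and 23.3% of all genes. Dbp, a transcription factor driven by the clock, ran from 10.97 through 11.11 to 11.20 in replicates 1-4 and from 11.43 through 11.59 to 11.64 in replicates 5-8, a difference of -0.44 ± 0.042 (SE, n = 8 libraries per set) with no overlap. Per3, a period gene of the same clock, went the other way at 0.29 ± 0.031, also with no overlap. The hour of killing is not in the labels, and its part in the result was not tested.

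As deposited, several lists lay near the middle of all genes, of which 19.3% were called higher and 23.3% lower. Interferon response genes had 0 of 21 called higher and 5 lower with a median of -0.0022, inflammatory mediator genes 2 of 25 each way, and reactive astrocyte genes 0 of 19 higher and 2 lower. Cell division genes had 2 of 23 called higher and 0 lower, and their median of 0.022 became -0.0079 with quantile normalization and -0.0026 with median centring. Cholesterol synthesis genes had 4 of 21 called higher and 6 lower, and glucocorticoid-induced genes 1 of 18 higher and 3 lower. With the length trend removed, interferon response genes had 8 called higher and 1 lower, and inflammatory mediator genes 7 and 1. Cell division genes then had 6 and 0, and glucocorticoid-induced genes 6 and 2. Cholesterol synthesis genes had 6 and 4, and reactive astrocyte genes 2 and 2. Among all genes with a span, 3593 of 14526 were then called higher and 3163 lower.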
